A study of Mus musculus with 2 samples.

Results

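Lin28a, Lin28b, Trim71, Hmga1, Hmga2, Igf2bp1, Igf2bp2 and Igf2bp3 belong to a set of genes known for their use in early embryos, most of which are low in adult tissues. These 8 genes were chosen by symbol, with their TPM levels and ratios in the same libraries already known, out of 43346 Ensembl genes in the tables. Each was matched to a single Ensembl identifier. Their levels and ratios are therefore given as a description, with no test. Total RNA was measured in the facial prominence of B6NCrl mouse embryos at embryonic day 14.5, in 1 group of 2 biological replicates with no treatment and no altered allele. Each library was made from 10.0 ng of RNA with a SMART-seq protocol. The labels call each sample a single face, taken on a different day for each replicate, and also give the sex as pooled, so the 2 statements do not match. Depth came to 37738872 expected counts in replicate 2 and 30919488 in replicate 1. No conditions are compared, and every ratio below sets replicate 2 over replicate 1. With a single library on each side of this ratio there is no spread to test against, so no test was made across embryos.

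Jaws, palate and teeth form in this tissue. Its mesenchyme markers Prrx1 (78.8 TPM in replicate 2 and 80.1 in replicate 1), Osr2 and Msx1 were all present, and 7 of 7 mesenchyme markers reached 1 TPM in both libraries. In contrast, markers of pluripotent and germ cells were nearly silent. Of 11 of them, Nanos3 alone reached 1 TPM in both libraries, and Pou5f1 and Prdm14 had 0 counts in each. Liver markers were also low, with 0 of 4 at 1 TPM in both.

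The genes are tied together by the let-7 family of microRNAs, which accumulates as tissues mature. Lin28 proteins bind the loop of let-7 precursors and recruit the uridylyl transferases Tut4 and Tut7, after which the nuclease Dis3l2 degrades the tailed precursor. Mature let-7 in turn represses mRNAs that carry its seed match in the 3′ untranslated region (UTR), among them Lin28b, Trim71, Hmga2 and the Igf2bp genes. Hmga1 and Hmga2 are chromatin proteins that bind the minor groove of AT-rich DNA through AT hooks. The Igf2bp proteins bind mRNAs through KH and RRM domains and affect their stability, transport and translation. Trim71 is an RNA-binding ubiquitin ligase of the TRIM-NHL family.

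Mature let-7 sequences are shown because their shared seed defines the sites searched in the members. RefSeq (GRCm38.p6) lists 9 different 5p miRNAs from 12 hairpins in the let-7 and mir-98 family, and all 9 share the same seed at bases 2 to 8, printed in capitals. The 5 below differ from each other only outside the seed.
let-7a-5p: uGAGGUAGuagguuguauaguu
let-7d-5p: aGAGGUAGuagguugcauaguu
let-7e-5p: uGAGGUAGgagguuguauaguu
let-7g-5p: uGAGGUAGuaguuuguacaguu
miR-98-5p: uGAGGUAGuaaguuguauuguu

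Lin28 proteins are known to favour a GGAG motif in the precursor loop. GGAG, searched on the RNA strand alone, lay between the arms in 9 of the 12 family hairpins, and 447 of the 1005 mouse hairpins listed (44.5%) held it somewhere. The let-7g hairpin on chromosome 9 holds it and the mir-98 hairpin on chromosome X does not, and they are printed with GGAG in capitals as examples of each kind.
let-7g hairpin: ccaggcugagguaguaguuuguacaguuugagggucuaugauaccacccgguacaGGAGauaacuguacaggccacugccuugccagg
mir-98 hairpin: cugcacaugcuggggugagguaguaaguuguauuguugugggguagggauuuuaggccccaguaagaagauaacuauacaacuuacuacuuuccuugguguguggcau

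The seed match CTACCTC was then searched in the 3′ UTR of each member's most abundant complete coding transcript, on the transcript strand only, using GENCODE M21 sequences on GRCm38. CTACCTCA, the same match followed by A, contains CTACCTC and was counted among its matches as the 8-base form. All 8 members held at least 1 match, against 1514 of 19449 protein-coding genes (7.78%), and several of them are known as let-7 targets, so their count is a description. Of the members, 5 held 2 or more, against 172 of all genes (0.884%). The members had 21 matches in total, 13 of them in the 8-base form. A match is a run of letters and does not show that let-7 acts on it in this tissue. The first 8-base match of each UTR, or for Hmga1 its only 7-base match, is printed with up to 30 bases and the match in capitals.
Lin28a, chr4:134005189-134005218, minus strand: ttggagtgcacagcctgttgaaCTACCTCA
Lin28b, chr10:45381022-45381051, minus strand: tcccttcacccgggcgggaagtCTACCTCA
Trim71, chr9:114512472-114512501, minus strand: aaagtacaacattgcctaagtcCTACCTCA
Hmga1, chr17:27563270-27563299, plus strand: catcttctcctctgttcacaaaCTACCTCt
Hmga2, chr10:120364224-120364251, minus strand: ggggcgccgacattcaatttCTACCTCA
Igf2bp1, chr11:95961778-95961807, minus strand: aggcagtgctgtgcgaagtaaaCTACCTCA
Igf2bp2, chr16:22059473-22059502, minus strand: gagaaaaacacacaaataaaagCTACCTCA
Igf2bp3, chr6:49086787-49086816, minus strand: ttaaacgtgcatttttactcaaCTACCTCA

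The number of matches did not simply follow UTR length. Hmga2 had 4 in 2977 bases, and only 0.0853% of 2346 UTRs of similar length (neither under 75% of the other) had at least as many. Each such share in this paragraph counts the gene itself and any other member of similar length. Its first match began 21 bases after the stop codon. Lin28b had 4 in 4445 bases (0.318% of similar UTRs), with the first at base 36. Igf2bp1 had 4 in 6337 bases (0.385%), 3 of them 8-base matches. Trim71 had 4 in 5512 bases (0.678%), and all of its matches were 8-base. They came in close pairs, at bases 166 and 262 and at bases 3591 and 3617. Lin28a had 2 in 2775 bases, a number reached by 2.21% of similar UTRs. Hmga1, Igf2bp2 and Igf2bp3 had 1 each, which 8.66%, 12.1% and 12.8% of UTRs of similar length also reach. Thus, Hmga1 was the only member without an 8-base match.

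**Figure D1:**
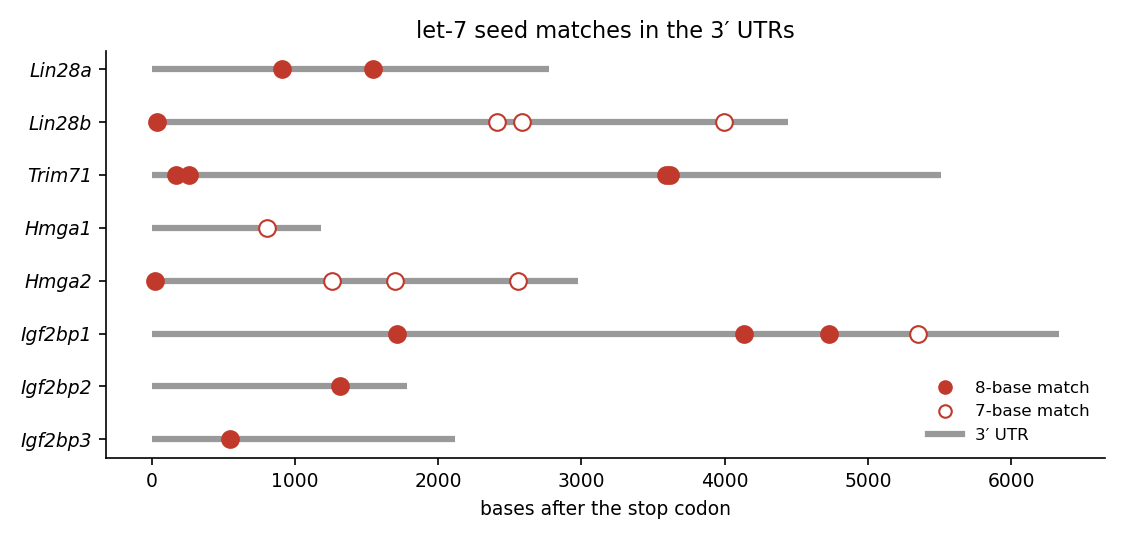
Positions of let-7 seed matches in the 3′ UTRs of the 8 genes. The horizontal axis gives bases after the stop codon, grey lines the UTR, filled circles 8-base matches and open circles 7-base matches; Hmga2, Lin28b, Igf2bp1 and Trim71 have 4 matches each.

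The 2 Lin28 paralogs and Trim71, were the lowest of the members. Lin28b, on chromosome 10 (45376620 to 45486395, minus strand), had 0.24 TPM in replicate 2 and 0.53 in replicate 1, from 33 and 55 counts. TPM is abundance corrected for transcript length. Its CPM (expected counts scaled to the library total, with no correction for length) in replicate 2 was 0.492 of that in replicate 1, with an exact 95% counting interval of 0.309 to 0.770. Trim71, on chromosome 9 (114507133 to 114564369, minus strand), had 0.04 TPM in replicate 2 and 0.11 in replicate 1, from 10 and 19 rounded counts. The corresponding CPM ratio was 0.431 (0.179 to 0.975). Both genes were lower in replicate 2, but these intervals cover counting error only and not the difference between animals. The median gene had a CPM ratio of 0.950, which lies inside the Trim71 interval and above the Lin28b interval.

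Lin28a, the paralog used by pluripotent cells, was not detected in replicate 2 and had 2 counts in replicate 1. It lies on chromosome 4 (134003330 to 134018841, minus strand). A count of 0 allows up to 3 counts, or 0.0346 TPM on its longest transcript in replicate 2, so no fold is given between the libraries. In replicate 1 the 2 counts gave 0.03 TPM, below the 0.0447 TPM that 3 counts would give there. Hence Lin28b was the only Lin28 gene with more than 2 counts in either library. In bulk tissue, fewer cells with a transcript and less of it per cell cannot be told apart, so these low levels do not show whether a few cells hold much Lin28b.

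Hmga1 was the most abundant of the 8 genes. It lies on chromosome 17 (27556497 to 27563674, plus strand) and had 110.82 TPM in replicate 2 and 138.05 in replicate 1, a mean of 124 ± 19.3 TPM (SD, n = 2). It ranked 1171 and 1038 among 21474 protein-coding genes in replicates 2 and 1. Its CPM in replicate 2 was 0.824 of that in replicate 1 (95% counting interval 0.789 to 0.861).

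Hmga2, which is known from mice and humans to affect body size, was far lower than its paralog. On chromosome 10 (120361275 to 120476469, minus strand), it had 8.43 TPM in replicate 2 and 14.61 in replicate 1, a mean of 11.5 ± 4.37 TPM (SD, n = 2). Hmga1 was 13.1 times Hmga2 in replicate 2 and 9.45 times in replicate 1, both by TPM. Of all 8 genes, Hmga2 had the lowest CPM ratio among those above 1 TPM, 0.611 (0.556 to 0.672), from 776 and 1040 rounded counts in replicates 2 and 1.

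All 3 Igf2bp genes were expressed, in an order that held in both embryos. Igf2bp2, the family member that also persists in adult tissues, had 57.02 TPM in replicate 2 and 66.04 in replicate 1 (chromosome 16, 22059009 to 22163299, minus strand). Igf2bp3 had 33.66 TPM in replicate 2 and 44.52 in replicate 1 (chromosome 6, 49085223 to 49214957, minus strand). Igf2bp1, a regulator of mRNA localisation and stability, had 14.16 TPM in replicate 2 and 24.46 in replicate 1 (chromosome 11, 95957163 to 96005940, minus strand). The means were 61.5 ± 6.38, 39.1 ± 7.68 and 19.3 ± 7.28 TPM for Igf2bp2, Igf2bp3 and Igf2bp1 (SD, n = 2 each). Igf2bp2 thus took 54.4% of the family's summed TPM in replicate 2 and 48.9% in replicate 1. The shares of Igf2bp3 were 32.1% and 33.0% in replicates 2 and 1, and those of Igf2bp1 13.5% and 18.1%.

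Ordered by mean TPM, the genes ran Hmga1, Igf2bp2, Igf2bp3, Igf2bp1, Hmga2, Lin28b, Trim71 and Lin28a. Among neighbours in this order, the values of Igf2bp1 and Hmga2 overlapped between the libraries and the other neighbours did not. Of the 8 genes, 5 reached 1 TPM in both libraries, where 63.9% of all protein-coding genes did. The count among the members is close to that share, so nothing is read from it. The 3 that did not reach 1 TPM were Lin28a, Lin28b and Trim71, while the Hmga and Igf2bp genes did. Expressed protein-coding genes had a median of 17.3 TPM. Hmga1, Igf2bp2 and Igf2bp3 lay above it in both libraries, Igf2bp1 in replicate 1 alone and Hmga2 in neither.

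**Figure D2:**
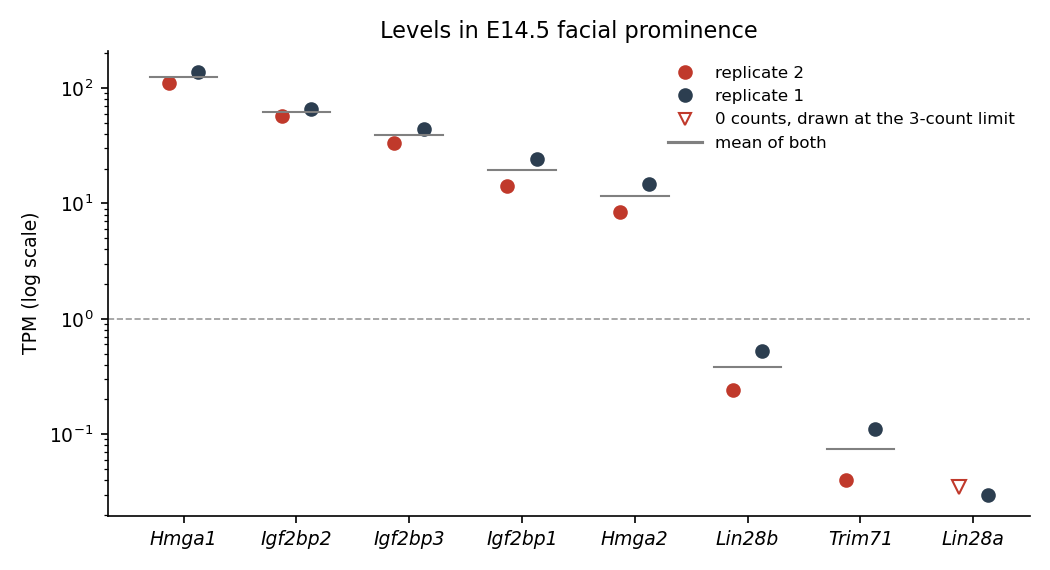
TPM of the 8 genes on a log axis, replicate 2 in red on the left and replicate 1 in dark blue on the right of each pair, with grey bars at the mean and the dashed line at 1 TPM. The 5 Hmga and Igf2bp genes lie between 8.43 and 138.05 TPM and the other 3 below 1 TPM; Lin28a had 0 counts in replicate 2, drawn as an open triangle at the 0.0346 TPM that 3 counts allow.

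The 5 expressed members all had a lower TPM in replicate 2, as did 75.5% of all genes with a mean of 1 TPM or more. Lin28b and Trim71 were lower too, at few counts, and Lin28a, with 0 and 2 counts in replicates 2 and 1, gives no direction. The 8 genes together summed to 224 TPM in replicate 2 and 288 in replicate 1. Part of this is shared with most genes, because the median gene also differed by -0.15 on the log2(TPM + 1) scale, so each ratio was set against it. After this, all 5 members with a ratio still lay below the median gene, where 47.7% of all genes with a mean of 1 TPM or more did. None of the 5 reached a 2-fold difference, against 1.97% of all genes. Their median was -0.25 on the log2 scale, beside 0.01 for all genes. Since this contrast was known when the genes were chosen, nothing is read from these counts.

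The members were not lower to the same extent. Relative to the median gene, the log2 difference was -0.58 for Hmga2, -0.25 for Igf2bp3, -0.17 for Hmga1 and -0.06 for Igf2bp2. For scale, the same quantity had an SD of 0.28 over 11482 genes with a mean of 5 TPM or more, with -0.28 and 0.35 at the 5th and 95th percentiles. Hmga2 therefore lay outside that range, with 0.523% of those genes below it, while Igf2bp2, Hmga1 and Igf2bp3 lay inside it. By CPM, 0.496% of genes lay below Hmga2. The median gene had a CPM ratio of 0.950.

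The ratio of Igf2bp1 moved most with how it was read. By gene TPM its log2 difference was -0.60, with 0.505% of genes below it. By counts, however, replicate 2 held 2895 and replicate 1 held 2990, and the CPM ratio of 0.793 (95% counting interval 0.753 to 0.835) placed 6.09% of genes below it. The transcript estimates show where the readings part. Igf2bp1-205, an annotated processed transcript of 576 bases with no coding sequence, was given 0 counts in replicate 2 and 47.80 counts in replicate 1. Being short, it made up 0% of the gene's TPM in replicate 2 and 20.78% in replicate 1, but only 1.60% of the counts in replicate 1. The coding transcript Igf2bp1-201 had 13.68 TPM in replicate 2 and 17.90 in replicate 1, a log2 difference of -0.22 relative to the median gene. Exons of Igf2bp1-205 share 83.9% of their bases with Igf2bp1-201, which leaves 93 bases of its own. The authors' credibility interval for its TPM ran up to 1.95 in replicate 2 and from 2.52 to 7.77 in replicate 1.

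**Figure D3:**
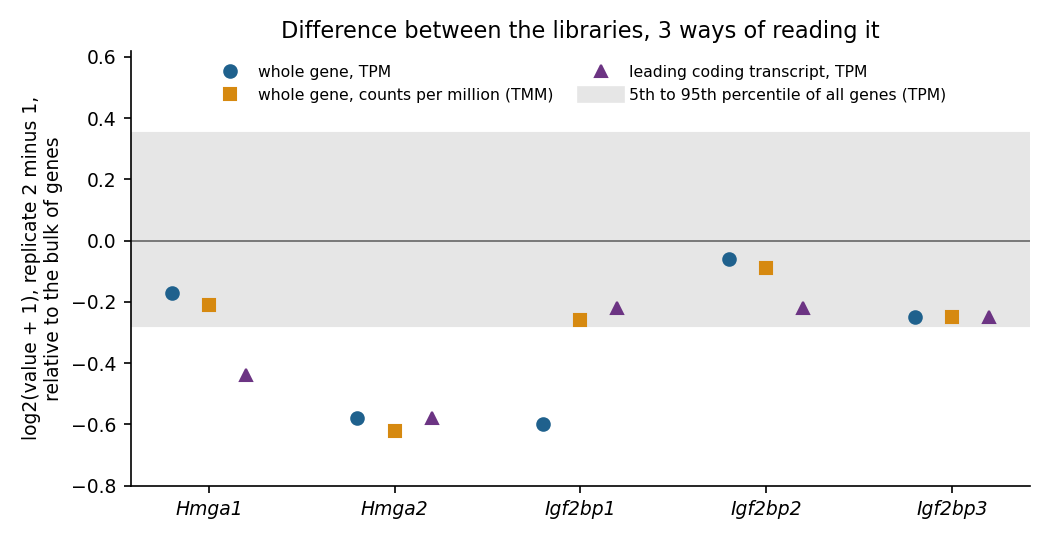
Log2 difference of replicate 2 minus replicate 1 for the 5 members above 1 TPM, from gene TPM (circles, set against the median gene), CPM with TMM scaling (squares) and the leading coding transcript's TPM (triangles, set against the median gene). The grey band spans -0.28 to 0.35, the 5th to 95th percentile of gene TPM ratios over genes with a mean of 5 TPM or more. It is not the spread of the CPM or transcript readings, which is not drawn. Hmga2 lies below this band in all 3 readings, while Igf2bp1 does so by gene TPM alone and Hmga1 by its leading transcript alone.

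The other members also differed in how many transcripts carried them. Igf2bp3, Lin28b and Trim71 have a single transcript in the tables. Hmga2-201 held 99.71% of the Hmga2 TPM in replicate 2 and 99.57% in replicate 1. Hmga1 was split among coding transcripts. Hmga1-203 took 41.35% of its TPM in replicate 2 and 50.17% in replicate 1, and Hmga1-201 took 39.61% and 33.76% in replicates 2 and 1. They differ in coding length, with 318 bases in Hmga1-203 and 288 bases in Hmga1-201, and both were well represented in each library.

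Igf2bp2 had 2 transcripts of nearly equal share. Igf2bp2-207, annotated as a retained intron, took 45.23% of the TPM in replicate 2 and 44.78% in replicate 1, and the coding Igf2bp2-201 took 39.82% and 44.75% in replicates 2 and 1. Of the 3267 bases of Igf2bp2-207, 3259 also lie in exons of Igf2bp2-201, so only 8 bases and its shorter extent set it apart. Coding transcripts alone summed to 26.5 TPM in replicate 2 and 32.1 in replicate 1. On that basis Igf2bp2 would lie below Igf2bp3, whose single transcript is coding, in both libraries. The order of Igf2bp2 and Igf2bp3 therefore rests on the transcript annotated as noncoding.

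**Figure D4:**
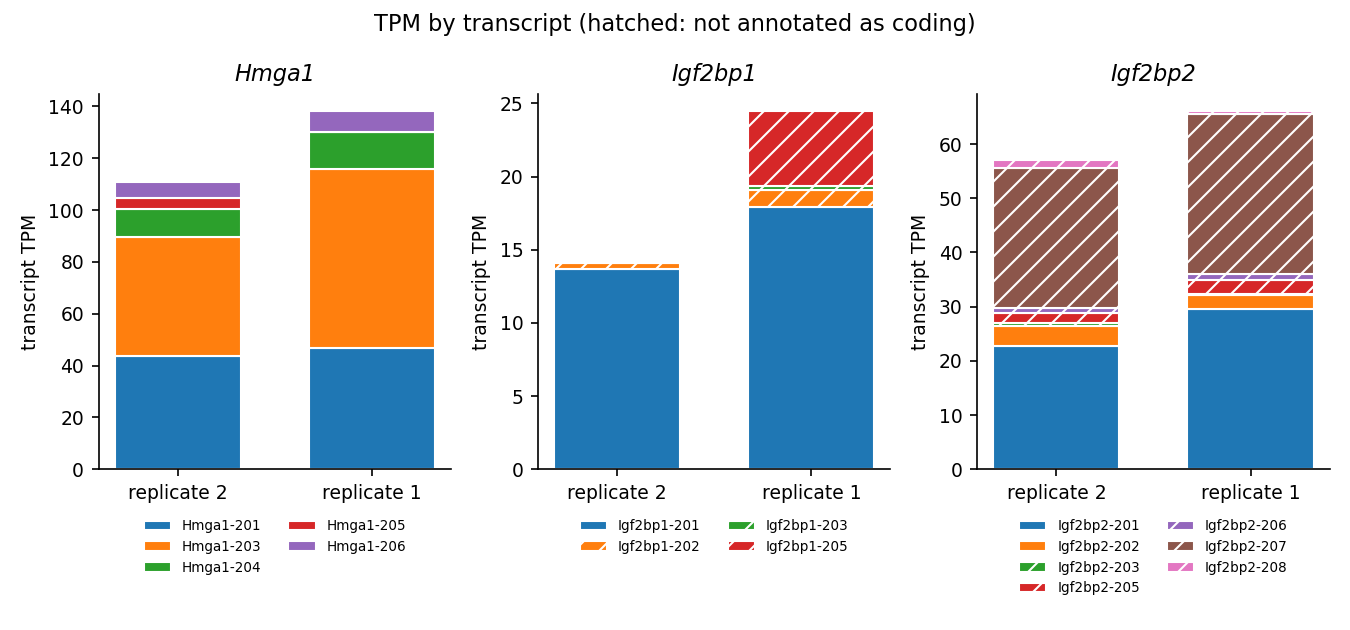
Stacked transcript TPM of Hmga1, Igf2bp1 and Igf2bp2 in replicate 2 (left bar) and replicate 1 (right bar), with hatching for transcripts not annotated as coding. Igf2bp1-205 is present in replicate 1 alone, and Igf2bp2-207 takes 45.23% of Igf2bp2 in replicate 2 and 44.78% in replicate 1.

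Some member values share reads with other genes. Hmga1b, a near copy of Hmga1 with 99.6% identity over 1598 bases, had 2.24 TPM in replicate 2 and 3.73 in replicate 1, so the split between them is uncertain although small. Malsu1, a mitochondrial ribosome assembly gene on the opposite strand, overlaps the 3′ end of Igf2bp3 over 1529 bases and had 49.7 TPM in replicate 2 and 53.3 in replicate 1. Strand handling is not given in the sources used here, so reads from this stretch may belong to either gene. AI413582 overlaps the end of Hmga1 on the opposite strand, with 17.9 TPM in replicate 2 and 20.6 in replicate 1. Inside Hmga2 the antisense gene 1700006J14Rik had 1.97 TPM in replicate 2 and 1.41 in replicate 1. Stretches of Hmga2 also match Cox16 (93.4% over 320 bases) and Gm20498 (92.4% over 488 bases). C130032M10Rik, inside Trim71 on the other strand, had 17.0 counts in replicate 2 and 12.8 in replicate 1, about as many as Trim71 itself.

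RNAs of the microRNA machinery through which let-7 is made and acts were present in both libraries. All 16 genes of microRNA processing, tailing, decay and silencing on the list reached 1 TPM in both, where 63.9% of all protein-coding genes did. The Dicer partners Tarbp2 (52.8 TPM in replicate 2 and 63.8 in replicate 1) and Prkra (40.1 and 49.3 TPM in replicates 2 and 1) were the highest, and Ago4 was the lowest at 2.01 TPM in replicate 2 and 2.15 in replicate 1. The uridylyl transferase Tut4, which Lin28 recruits, had 34.5 TPM in replicate 2 and 44.0 in replicate 1. Tut7, its paralog, had 17.3 and 18.7 TPM in replicates 2 and 1, and Dis3l2 had 16.1 and 18.1 TPM, both named for their role in the pathway after their values were seen. Relative to the median gene, 6 of the 16 were higher and 10 lower in replicate 2, with a median log2 difference of -0.02.

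Mature let-7 was not measured. The libraries hold RNA above a size limit, and let-7 hairpin genes in the tables were at 0 TPM in both with effective lengths of 9.00 bases or fewer, so this 0 carries no information about let-7. Genes that contain hairpins on the same strand had values for 9 of the 12 hairpins. Huwe1, a ubiquitin ligase gene that holds let-7f-2 and mir-98, had 36.0 TPM in replicate 2 and 41.1 in replicate 1. The let-7a-2 host 3110039I08Rik had 32.4 TPM in replicate 2 and 44.2 in replicate 1. Mir99ahg, host of let-7c-1, had 21.9 and 26.5 TPM in replicates 2 and 1, and Wdr82, which holds let-7g, had 19.4 and 22.5 TPM. Spaca6, which holds let-7e, had 12.0 TPM in replicate 2 and 16.4 in replicate 1. The host of let-7a-1, let-7f-1 and let-7d, 6720427I07Rik, was higher in replicate 2 by TPM, unlike the 5 hosts above, at 6.06 TPM against 5.09 TPM in replicate 1.

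As a list, other known let-7 targets had a median closer to the median gene. Single genes of the list ranged from -0.37 to 0.42 on the log2 scale, so some lay further from it than several members. Of 20 on the list, 19 reached 1 TPM in both libraries, and their median log2 difference was -0.02, with 9 above and 11 below the median gene. The cyclins Ccnd2 (173 TPM in replicate 2 and 199 in replicate 1) and Ccnd1 (97.6 and 111 TPM in replicates 2 and 1) and the ubiquitin-conjugating enzyme Cdc34 (73.3 and 78.5 TPM) were the highest. Nr6a1, a nuclear receptor with 8 seed matches and the most of any gene, was the lowest, with 1.39 TPM in replicate 2 and 0.980 in replicate 1. Across all other genes with a mean of 1 TPM or more, the median log2 difference was 0.01 for 136 genes with 2 or more matches, 0.00 for 1055 with 1 match and 0.01 for 12497 with none.

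Partner proteins and target RNAs of the Igf2bp proteins ranged widely in level. All 8 partner proteins on the list were expressed, led by Ybx1 (522 TPM in replicate 2 and 574 in replicate 1), Pabpc1 (352 and 407 TPM in replicates 2 and 1) and Syncrip (83.1 and 93.5 TPM). Dhx9, the lowest, had 17.0 TPM in replicate 2 and 20.5 in replicate 1. Among 8 target RNAs, Actb had 4519 TPM in replicate 2 and 5470 in replicate 1. Igf2, the growth factor RNA that gave the family its name, had 1136 TPM in replicate 2 and 1178 in replicate 1, and H19 had 1051 and 1004 TPM in replicates 2 and 1. Ptgs2, the lowest, stayed below 1 TPM in both libraries. The median log2 difference was -0.01 for the partners and 0.06 for the 7 targets with a ratio.

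Genes that share a group name or a protein domain with the members were also set beside them. Of 10 other high mobility group genes, 9 were expressed and 7 lay below the median gene, with a median of -0.11. Hmgn2 (1562 TPM in replicate 2 and 1926 in replicate 1), Hmgb1 (815 and 932 TPM in replicates 2 and 1) and Hmgn1 (375 and 447 TPM) all exceeded Hmga1, and Hmgb4 had 0 counts in both. Other genes with a cold shock domain, the RNA-binding fold that Lin28 carries, were all expressed (6 of 6). Their median log2 difference was 0.05. Unlike Trim71, its relatives Trim32 (35.4 TPM in replicate 2 and 40.4 in replicate 1), Trim3 and Trim2 were all expressed, with a median of -0.04. Among 12 fetal growth genes, led by Mest at 1591 TPM in replicate 2 and 1866 in replicate 1, 3 lay above and 9 below the median gene, with a median of -0.04.

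Markers of cartilage, bone and red blood cells differed between the libraries. All 4 cartilage markers were lower in replicate 2, with log2 differences from -1.24 to -0.30 relative to the median gene and a summed level of 376 TPM against 664 TPM in replicate 1. Col2a1, the main cartilage collagen, had 285 TPM in replicate 2 and 484 in replicate 1, and Matn1 had 39.3 and 104 TPM in replicates 2 and 1. All 4 bone markers were higher in replicate 2, at 4472 TPM summed against 3557 TPM in replicate 1, led by Col1a1 (3598 and 2955 TPM in replicates 2 and 1). The 4 erythroid markers were likewise higher, at 13340 TPM summed in replicate 2 and 10915 TPM in replicate 1. The 4 proliferation markers had a median of -0.09, with 3 below the median gene. The part of these markers in the lower Hmga2 and Igf2bp1 values of replicate 2 was not tested, and with 1 library from each collection day, day and embryo cannot be told apart.

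**Figure D5:**
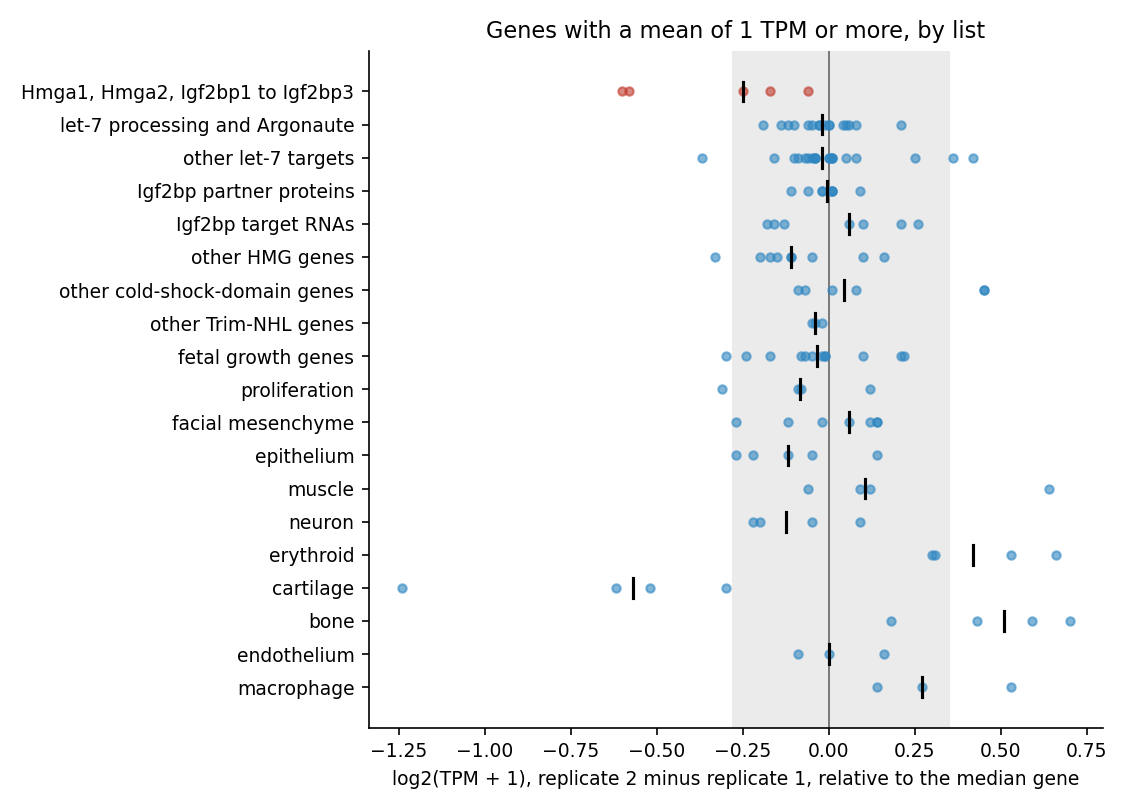
Log2 difference of replicate 2 minus replicate 1 relative to the median gene, with a point for each gene with a mean of 1 TPM or more and a black bar at each list's median. The grey band spans -0.28 to 0.35, the 5th to 95th percentile over genes with a mean of 5 TPM or more; cartilage markers lie on the side of the members, and bone and erythroid markers on the other side.

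The remaining marker lists had medians closer to the median gene. Facial mesenchyme had a median log2 difference of 0.06, epithelium -0.12, muscle 0.11, neurons -0.13 and endothelium 0.00. Muscle markers summed to 2813 TPM in replicate 2 and 2124 in replicate 1, most of it from the muscle actin Acta1, which had 2448 TPM in replicate 2 and 1743 in replicate 1, a log2 difference of 0.64. Macrophage markers were higher in replicate 2, with a median of 0.27 over 3 genes.

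For 4 of the expressed members, the protein-coding gene with the nearest values in both libraries was found by Euclidean distance on the log2(TPM + 1) scale. These were G3bp1 for Hmga1 (112 TPM in replicate 2 and 138 in replicate 1), Zwilch for Hmga2 (8.46 and 14.5 TPM in replicates 2 and 1) and Cwc27 for Igf2bp1 (14.5 and 23.4 TPM). For Igf2bp2 it was Glud1 (57.3 TPM in replicate 2 and 65.8 in replicate 1). With only 2 libraries this likeness is one of level and ratio and says nothing of a shared role.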

How the data were processed

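Each library was quantified alone on mm10 with GENCODE M4, per the companion text; the sources used here name no aligner, quantifier or strand setting. The authors deposited expected counts (not scaled to depth), TPM, FPKM, the percent of a gene's TPM given to each transcript, and credibility bounds, per the file headers. Symbols, positions and UTRs were taken by Ensembl identifier from GENCODE M21, also on GRCm38, and microRNAs from RefSeq GRCm38.p6. Ratios were differences of log2(TPM + 1), a scale that shrinks the change of low genes, minus the median of genes with a mean of 5 TPM or more. Members needed a mean of 1 TPM. CPM ratios used rounded expected counts over library totals, with exact conditional binomial 95% intervals. Intervals and the 3-count floor cover only counting error.

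Near copies were sought with BLAST 2.17.0 (90% identity over 200 bases). Python 3.11.15, scipy 1.17.1 and, for scaling factors alone, edgeR 4.0.16 and DESeq2 1.42.0 were used, and scripts were first tested on simulated counts. The members, lists, thresholds and sequence searches were chosen with earlier results of these data known. The rule for named genes covers all members, each list's 3 highest genes by mean TPM and, from 6 genes on, its lowest (some are not reported here), overlapping genes, near copies, let-7 hosts and nearest genes.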

Additional observations from a re-analysis of the deposited data

How the results depend on the processing

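The count of 5 members at 1 TPM in both libraries was also 5 at 0.5 TPM, at 5 TPM, with FPKM and without either replicate. None of the 5 members with a mean of 1 TPM reached 2-fold under any alternative run. Below that level, the CPM ratios were 0.492 for Lin28b (0.309 to 0.770) and 0.431 for Trim71 (0.179 to 0.975). Lin28b was past 2-fold only as read without the median gene, which had 0.950. Trim71 was past 2-fold with or without it. Their counting intervals also hold differences smaller than 2-fold. The median log2 ratio of the members, -0.25, was -0.39 when not set against the median gene, since the median gene itself was lower in replicate 2. Under the other alternatives with the same 5 members it lay between -0.25 and -0.24. With no filter on low values it was -0.22, but that median was taken over all 8 members, Lin28a among them. The 5 members stayed below 0 under every alternative run. Igf2bp1 moved most, with -0.60 by gene TPM, -0.26 by CPM with edgeR or DESeq2 scaling, and -0.22 for its coding transcript alone, an alternative added after the data were seen. That transcript reading gave -0.44 for Hmga1 and -0.22 for Igf2bp2. No paired analysis was possible because the series has 1 group. With 10 to 55 counts in Lin28b and Trim71, and 2 or fewer in Lin28a, depth limits what can be said of them.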
